A study of Arabidopsis thaliana with 12 samples.

Results

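Transcript levels of 5 Arabidopsis thaliana genes were followed across all 12 arrays of the series: the loci AT3G15450, AT4G27450, AT2G20670 and AT5G19120, and SIS (AT5G02020), listed in RefSeq as Salt Induced Serine rich. Each gene had 1 probe set that paired with that gene alone, which made 5 of the 22810 probe sets on the Affymetrix ATH1 array, and all 5 passed the filter on low signal that kept 13647. They were chosen because their levels were already known to be ordered across these genotypes, with sex1-3 high and ptpkis2 low. Their levels and differences between genotypes are therefore a description and carry no test.

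Leaves were taken at the end of the night, with 0.5 hours of darkness left, from plants kept at 20 degrees Celsius in a 12 hour photoperiod (light of 100 micromol per square metre and second). The 4 genotypes, each with 3 arrays, were sex1-3 (an induced mutation in Col-0), sex4-3 (Salk_102567), ptpkis2 (Salk_053285) and wild type Col-0. Each mutant genotype is 1 line. Per the labels, 8 plants of a genotype gave 3 leaves. The labels do not say if the 3 arrays shared plants or a pool, so the p-values below measure the spread between arrays, which may be technical.

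Leaf starch made during the day is broken down at night to supply sugar until dawn. SEX1, a glucan, water dikinase, adds phosphate to starch, SEX4 is a phosphatase that removes it, and PTPKIS2, also called LSF1, is a related protein required for normal starch breakdown. When sugar runs short, leaves raise a set of transcripts that sugar otherwise keeps low, and the kinase SnRK1 is one of the regulators of this response. AT3G15450, AT4G27450 and AT2G20670 are known to be raised in starved leaves.

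Wild type replicate 2 stood apart before any gene was considered. Its correlation with the other arrays was 0.586 to 0.604 across probe sets, against 0.891 to 0.93 among the other 11, and its median signal was 62.2, against 24 to 29.7. Its 20th percentile of signal was 11.6, against 2.78 to 3.91, so low signals lay higher on it. The differences of the 5 genes from wild type are given with all 12 arrays and with this array left out. The leaf marker RCA, Rubisco activase, lay between 5870 and 12698 on all arrays, and it was the 1 leaf marker of 14 with a named probe set. The root peroxidase AT5G17820 had a signal of 0.836 to 2.51 on the 9 mutant arrays and 20.5 on wild type replicate 2. SEX1, SEX4 and PTPKIS2 had no probe set named in the tables used here, so the genotypes were not checked by their own transcripts.

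AT3G15450 encodes an aluminium-induced protein of the family with YGL and LRDR motifs. Its signal was 3178, 3199 and 2730.2 in sex1-3, 441, 532 and 466 in sex4-3, 145, 138 and 120.3 in ptpkis2, and 869, 648 and 582 in wild type. All 4 genotypes were separate: sex1-3 was highest, wild type next, sex4-3 below it and ptpkis2 lowest. The lowest sex1-3 array had 3.14 times the signal of the highest array of any other genotype, and the lowest of the other arrays had 3.03 times that of the highest ptpkis2 array. The mean difference was 2.13 ± 0.18 (log2 ± SE, n = 3 per genotype) for sex1-3 minus wild type and -2.36 ± 0.18 for ptpkis2 minus wild type, or 2.09 and -2.40 without wild type replicate 2. For sex4-3 minus wild type it was -0.53 ± 0.18, or -0.57 without that array, with a gap between 532 in sex4-3 and 582 in wild type that was small beside the range of each group. Since these are whole leaves, fewer cells that make a transcript and less transcript per cell cannot be told apart.

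AT4G27450 belongs to the same protein family. Its signal was 1324, 1325 and 1299 in sex1-3, 264, 454 and 523 in sex4-3, 102, 107 and 109 in ptpkis2, and 428, 325 and 782 in wild type. The sex1-3 arrays lay within 1.02-fold of one another and the ptpkis2 arrays within 1.06-fold, whereas sex4-3 spread 1.98-fold, wild type spread 2.4-fold, and these 2 genotypes overlapped. The difference was 1.46 ± 0.31 for sex1-3 minus wild type and -2.17 ± 0.31 for ptpkis2 minus wild type, or 1.19 and -2.45 without wild type replicate 2. Wild type replicate 3 was the highest wild type array for this gene, and leaving it out gave 1.82 and -1.82. The sex4-3 value of -0.27 ± 0.31 had no stable sign: it was -0.54 when wild type replicate 2 was left out, 0.09 when wild type replicate 3 was, 0.03 when sex4-3 replicate 1 was, and 0.14 when each array was centred on its median.

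AT2G20670 encodes a protein of the DUF506 family, whose molecular function is not established. Its signal was 812, 1066 and 737 in sex1-3, 338, 318 and 269 in sex4-3, 90.8, 70.4 and 86.9 in ptpkis2, and 498, 284 and 371 in wild type. The sex1-3 and ptpkis2 arrays were each separate from all others, and wild type overlapped sex4-3 only through wild type replicate 2. The difference was 1.20 ± 0.23 for sex1-3 minus wild type and -2.19 ± 0.23 for ptpkis2 minus wild type, or 1.00 and -2.39 without that array. For sex4-3 minus wild type it was -0.29 ± 0.23, or -0.48 without wild type replicate 2, and it turned to 0.12 when each array was centred on its median.

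AT5G19120 encodes a protein of the aspartyl protease family. Its signal was 1272, 1339 and 1184 in sex1-3, 669, 508 and 461 in sex4-3, 81.7, 71.4 and 76.9 in ptpkis2, and 404, 52.1 and 382 in wild type. The wild type arrays disagreed: replicates 1 and 3 were within 1.06-fold of each other, and replicate 2 had 0.132 of their mean and lay below every ptpkis2 array. Leaving it out moved sex1-3 minus wild type to 1.68, where all arrays gave 2.66 ± 0.59, and ptpkis2 minus wild type to -2.36, where all arrays gave -1.39 ± 0.59. In fold terms sex1-3 was 6.31-fold above wild type with that array and 3.21-fold without it, and ptpkis2 was 2.62-fold below wild type with it and 5.13-fold without it. All 3 sex4-3 arrays were above all wild type arrays here, by 1.43 ± 0.59 with 12 arrays and 0.46 without wild type replicate 2. For the other 4 genes the mean of sex4-3 was below that of wild type on 12 arrays.

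SIS had signals of 375, 346 and 227 in sex1-3, 61.9, 61.4 and 75.2 in sex4-3, 13.9, 9.02 and 19.9 in ptpkis2, and 81.7, 55.2 and 212 in wild type. The ptpkis2 arrays were separate and lowest, and the sex1-3 arrays were highest, although the lowest of them exceeded wild type replicate 3 by only 1.07-fold. Even the ptpkis2 signals were above the 20th percentile of those arrays, which was at most 3.91 on any array but wild type replicate 2. Wild type spread 3.85-fold, more than sex4-3 (1.23-fold) or sex1-3 (1.65-fold), and overlapped sex4-3 through replicate 2. The difference was 1.65 ± 0.45 for sex1-3 minus wild type and -2.86 ± 0.45 for ptpkis2 minus wild type, and leaving out wild type replicate 2 gave 1.23 and -3.28. Leaving out replicate 3 in its place gave 2.20 and -2.31. For sex4-3 minus wild type it was -0.58 ± 0.45, and the mean of sex4-3 was 2-fold below wild type when replicate 2 was left out but differed by -0.03 when replicate 3 was. The ptpkis2 signals of SIS stood at 29.3% to 43.1% of all probe sets on their arrays by rank, where the filter on mean signal left out the lowest 40%, so SIS passed it through the genotypes in which it was higher.

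**Figure D1:**
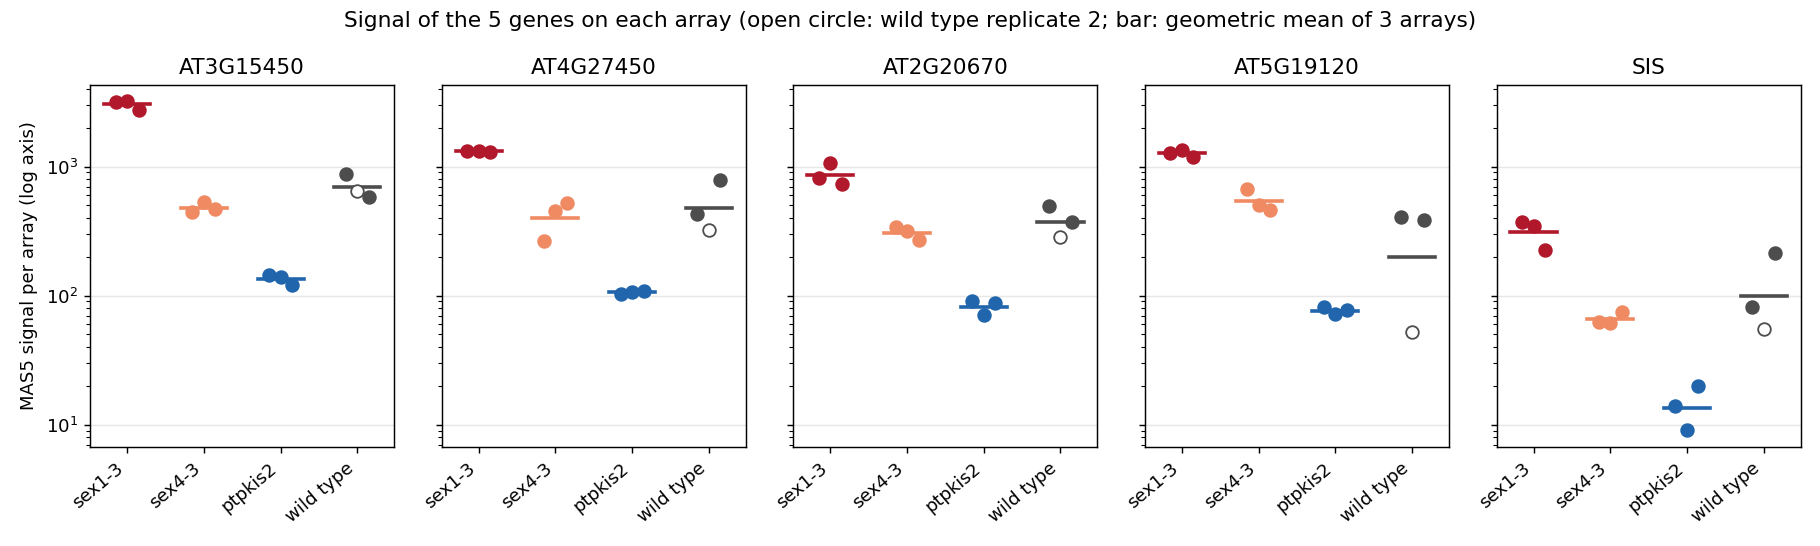
MAS5 signal (log axis) of each gene on each array, by genotype, with the geometric mean of the 3 arrays as a bar and wild type replicate 2 as an open circle. In every panel the sex1-3 points are highest and the ptpkis2 points are below those of sex4-3; the open circle lies below the ptpkis2 points for AT5G19120 alone.

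Across the 5 genes, the sex1-3 arrays did not overlap wild type for any, and all 5 were higher, where 10.7% of all probe sets tested were separate in that direction. They were 5 of 5 also when wild type replicate 2 was left out, where 16.4% of all were. The ptpkis2 arrays were separate from wild type and lower for 4 of 5, where 7.41% of all were, and for 5 of 5 without wild type replicate 2, where 16.7% were. The exception with 12 arrays was AT5G19120. Between sex4-3 and wild type, 1 of 5 was separate and higher (AT5G19120), where 3.77% of all were, and 1 of 5 separate and lower (AT3G15450), where 4.78% were. Without wild type replicate 2 the higher one was still AT5G19120, where 7.65% of all were separate, and the lower ones were 3 of 5 with AT2G20670 and SIS added, where 9.94% of all were. The genes were chosen on these comparisons, so nothing is read from these counts.

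**Figure D2:**
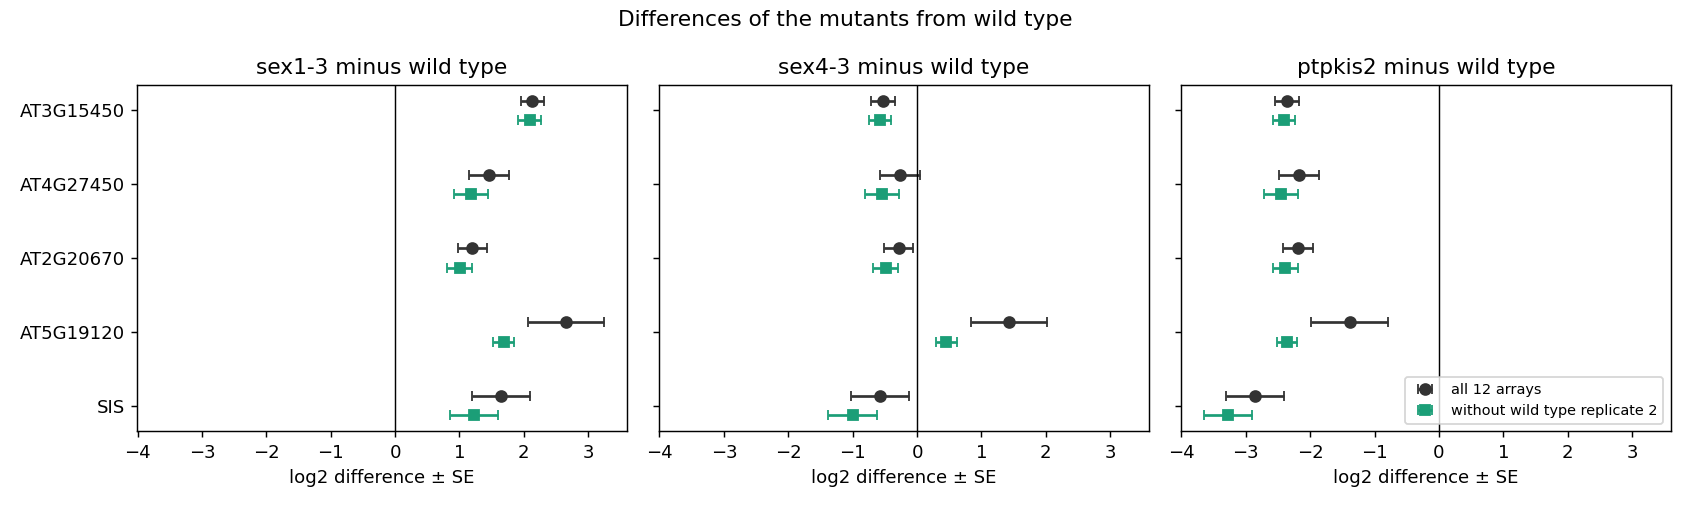
Log2 difference ± SE of each mutant from wild type for the 5 genes, with all 12 arrays (circles) and without wild type replicate 2 (squares). The sex1-3 values lie between 1.00 and 2.66 and the ptpkis2 values between -3.28 and -1.39, and AT5G19120 moves most when the array is left out.

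The mutants could be set against each other without any wild type array in the fold change. In ptpkis2 minus sex1-3 the differences were -4.49 ± 0.18 for AT3G15450, -3.64 ± 0.31 for AT4G27450, -3.39 ± 0.23 for AT2G20670, -4.04 ± 0.59 for AT5G19120 and -4.51 ± 0.45 for SIS. This made ptpkis2 lower by 10.5-fold for AT2G20670 and by 22.5-fold for AT3G15450. The SE pools the spread of all 12 arrays, so wild type replicate 2 does enter it. For AT5G19120 the SE of this difference was 0.15 without that array. The size for SIS depended on how its low ptpkis2 signal was treated: it was -4.13 with a pseudocount at the 20th percentile of signal and -4.21 when ptpkis2 replicate 2 was left out. Over all probe sets the middle 95% of differences lay between -1.30 and 1.70, with a median of 0.08. All 5 genes were among the 22 probe sets of 13647 with the lowest values in this comparison, and AT3G15450 and SIS were not told apart in order. The 3 arrays of ptpkis2 lay below those of sex1-3 for all 5 genes, where 19.2% of all probe sets were separate in that direction. Because the genes were chosen for this contrast, nothing is read from their ranks or from this count.

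Between sex4-3 and sex1-3, all 5 genes were lower in sex4-3 without overlap, where 13.5% of all probe sets were. The values ranged from -1.23 ± 0.59 for AT5G19120 to -2.66 ± 0.18 for AT3G15450. Between ptpkis2 and sex4-3, all 5 were lower in ptpkis2 without overlap, where 9.58% of all were, from -1.83 ± 0.18 for AT3G15450 to -2.82 ± 0.59 for AT5G19120. AT3G15450 thus had the larger step between sex4-3 and sex1-3, and AT5G19120 the larger step between ptpkis2 and sex4-3. The SE of 0.59 for AT5G19120 holds the spread of wild type replicate 2, and without that array it was 0.15 in both comparisons. Both counts without overlap rest on genotypes used to choose the genes, so nothing is read from them.

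The place of sex4-3 and wild type between the extremes was expressed as a percent of the log2 distance from the ptpkis2 mean (0%) to the sex1-3 mean (100%). Sex4-3 lay at 40.8% for AT3G15450, 50.6% for SIS, 52.5% for AT4G27450, 56.1% for AT2G20670 and 69.6% for AT5G19120. Wild type lay at 52.5% for AT3G15450, 59.8% for AT4G27450, 63.5% for SIS, 64.6% for AT2G20670 and 34.3% for AT5G19120. Without wild type replicate 2 the wild type positions were 53.5% to 72.8%, with AT5G19120 at 58.3%, below its sex4-3 position. On all 4 other genes sex4-3 lay below wild type with and without that array. Without wild type replicate 3, sex4-3 minus wild type was 0.09 for AT4G27450, -0.03 for SIS, -0.29 for AT2G20670 and -0.65 for AT3G15450 (log2).

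**Figure D3:**
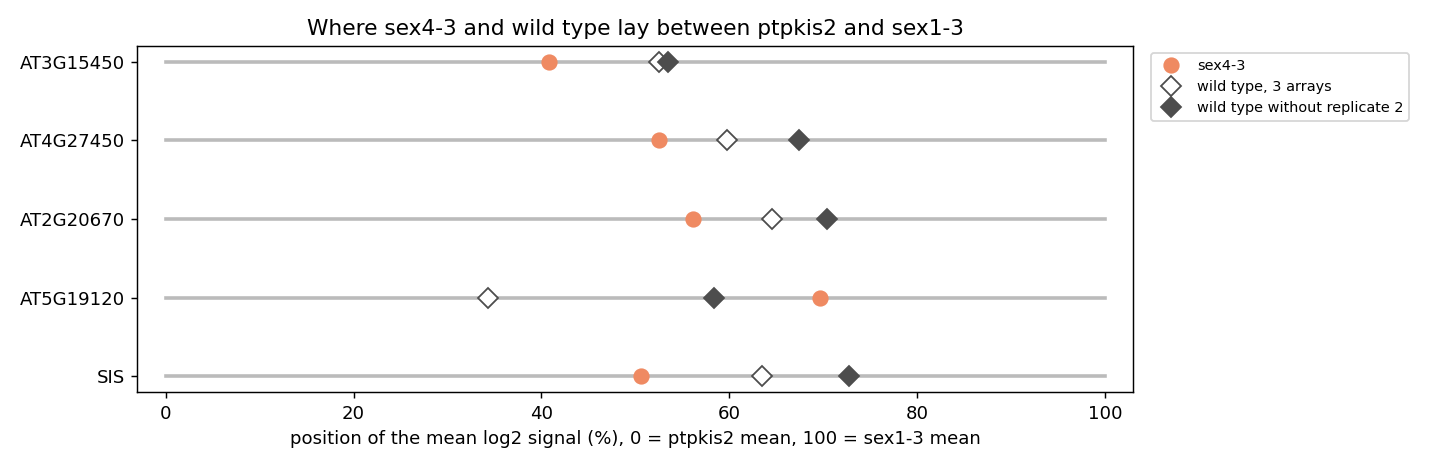
Position of the mean log2 signal of sex4-3 (circles) and wild type (open diamonds with 3 arrays, filled diamonds without replicate 2) on a line from the ptpkis2 mean (0%) to the sex1-3 mean (100%). Sex4-3 lies left of wild type for 4 genes and right of it for AT5G19120.

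A strict version of the order asked that all 3 sex1-3 arrays lie above every sex4-3 and wild type array, and these above all 3 ptpkis2 arrays. It held for 4 of the 5 genes, and for 0.828% of all probe sets tested (113 probe sets). It held for all 5 when wild type replicate 2 was left out, and for 2.51% of all (342 probe sets). The mirror order, with ptpkis2 highest and sex1-3 lowest, held for 108 probe sets, or 311 without that array. AT5G19120 missed the strict order through wild type replicate 2 alone. Since the genes were chosen for high sex1-3 and low ptpkis2 levels, nothing is read from their share.

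The 5 profiles were then compared with one another and with other genes by the root mean square difference of their log2 signals, each centred on its own mean, over the 11 arrays without wild type replicate 2. This distance is a description. Among the 5 it ran from 0.43 (AT2G20670 with AT5G19120) to 0.68 (AT5G19120 with SIS). AT4G27450 and AT3G15450, of 1 protein family, were 0.55 apart, no closer by this distance than AT4G27450 and AT2G20670 at 0.44. The distance also depends on the size of each gene's changes. By Pearson correlation over the same arrays these pairs were alike, at 0.953 and 0.950. With all 12 arrays the pairs with AT5G19120 moved to between 0.87 and 0.99, and AT4G27450 with AT2G20670 was then the closest pair at 0.42.

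Among the other probe sets that paired with 1 gene, AT3G15630 was nearest to the mean profile of the 5 genes (0.41), followed by AT1G54740 (0.50), AT2G30600 (0.57), AKINBETA1 (0.61) and AT1G78450 (0.61). The median distance of all such genes was 1.55. AT3G15630 had a mean signal of 548 ± 47.8 in sex1-3, 181 ± 49.9 in sex4-3, 62.3 ± 12.6 in ptpkis2 and 174 ± 84.4 in wild type (SD, n = 3). Without wild type replicate 2, which the distances leave out, the wild type mean was 220 ± 40.1 (SD, n = 2). AT3G15630 was also the nearest gene to AT4G27450 (0.39), AT2G20670 (0.32) and SIS (0.74) singly. AT2G30600 was nearest to AT3G15450 (0.56), followed by AT3G15630 (0.57) and AT1G72060 (0.60), and AT1G54740 was nearest to AT5G19120 (0.54), followed by AT3G15630 (0.59) and AT2G30600 (0.65). The distances of AT2G30600 are for the probe set with -3.25 in ptpkis2 minus sex1-3, and another of its probe sets had -2.10. AT4G27450 was next nearest to AT5G51390 (0.50) and AT1G54740 (0.51), and AT2G20670 to AT1G54740 (0.33) and AT1G78450 (0.39). Outside the 5, SIS had no gene with a named probe set closer than AT3G15630, with AT2G35170 at 0.85 and AT1G54740 at 0.87. With all 12 arrays AT3G15630, AT1G54740, AKINBETA1 and AT2G30600 were still the 4 nearest to the mean profile, and AT3G07870 (0.65) came next.

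Relatives of the 5 genes in their protein families were measured on the same arrays. AILP1 (AT5G19140), of the family with YGL and LRDR motifs, had a mean signal of 3118 ± 217 in sex1-3, 2064 ± 629 in sex4-3, 1474 ± 73.3 in ptpkis2 and 1421 ± 733 in wild type (SD, n = 3). Its difference for sex1-3 minus wild type was 1.30 ± 0.38 (limma adjusted p = 0.096). It was 0.78 when wild type replicate 2 was left out and passed (adjusted p = 0.037), where 3.23% of all probe sets rose. For ptpkis2 minus wild type it was 0.22 ± 0.38 (limma adjusted p = 0.76), or -0.30 without that array (adjusted p = 0.55). AT5G43830 of this family had 1.02 ± 0.42 in sex1-3 minus wild type (limma adjusted p = 0.22) and 0.28 ± 0.42 in ptpkis2 minus wild type (adjusted p = 0.74). With replicate 2 left out these were 0.35 (adjusted p = 0.19) and -0.39 (adjusted p = 0.23), so the second changed sign. AT3G22850 had -0.26 ± 0.65 and 0.31 ± 0.65 (adjusted p = 0.82 and 0.81). Once wild type replicate 2 was left out, it was at -1.24 in sex1-3 and passed (adjusted p = 0.016), where 5.64% of all fell, and its ptpkis2 value turned to -0.67 (adjusted p = 0.28). None of the 3 relatives passed in either comparison on 12 arrays by limma, where 2.95% and 0.264% of all probe sets did. At an unadjusted p under 0.05 were 2 of 3 for sex1-3, where 19.9% of all were, and 0 of 3 for ptpkis2, where 12.5% of all were. In ptpkis2 minus sex1-3, 0 of 3 passed by limma on 12 arrays, where 4.18% of all probe sets fell and 5.28% rose. At an unadjusted p under 0.05 was 1 of 3 there, where 22% of all were. Without wild type replicate 2, 2 of 3 fell in that comparison, where 12.3% of all did.

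Of the DUF506 family, 4 relatives of AT2G20670 could be compared and 0 of 4 passed against wild type by limma in sex1-3 or ptpkis2, where 2.95% and 0.264% of all probe sets did. At an unadjusted p under 0.05 were 0 of 4 for sex1-3 and 2 of 4 for ptpkis2, where 19.9% and 12.5% of all were. In ptpkis2 minus sex1-3, 2 of 4 fell, where 4.18% of all probe sets did: AT2G38820 by 1.22 ± 0.28 (limma adjusted p = 0.017) and AT3G07350 by 1.11 ± 0.27 (adjusted p = 0.023). AT2G38820 had a mean signal of 72.2 ± 3.92 in ptpkis2 and 168 ± 4.24 in sex1-3, and AT3G07350 had 50.4 ± 3.42 in ptpkis2 and 109 ± 10.4 in sex1-3 (SD, n = 3). AT3G22970 and AT2G39650 had 0.26 and 0.53 in that comparison without passing, and AT1G12030 did not pass the filter on low signal. The relatives AT5G19110 and AT5G19100 of AT5G19120, whose loci are numbered next to it, were also below the filter on 12 arrays, with mean signals of 3.48 ± 0.93 and 15.1 ± 6.81 in ptpkis2 and 8.07 ± 4.04 and 19.5 ± 5.2 in wild type.

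A wider list of 42 genes known to be raised when sugar is low, without the 5, had 12 members with a named probe set. The list was drawn up with earlier results of these data known, so its counts and p-values are not independent evidence. In sex1-3 minus wild type 5 of the 12 rose and 0 fell by limma, where 1.08% of all probe sets rose, and the median was 1.31, against -0.02 for all probe sets. These 5 were AKINBETA1, a regulatory subunit of SnRK1 (1.44 ± 0.14, limma adjusted p = 0.00041), MCCA (1.56 ± 0.21) and IVD (3.07 ± 0.48) of leucine breakdown, MGL, methionine gamma-lyase (3.27 ± 0.51), and AT3G15630 (1.80 ± 0.36, limma adjusted p = 0.023). Without wild type replicate 2 the count was 7 of 12, where 3.23% of all rose, with a median of 1.24. The values of these 5 were then 1.38 for AKINBETA1, 1.68 for MCCA, 2.36 for IVD, 2.62 for MGL and 1.33 for AT3G15630, and ATL8 (2.12) and ETFQO (0.99) also passed. The value of ATL8 rested on wild type signals of 4.71 and 27.2. The array left out had 102 for ATL8, above every sex1-3 array (37.7 to 60.1). Against the same wild type arrays ATL8 was also higher in sex4-3 (1.15) and ptpkis2 (1.43), without passing. For ETFQO the array left out had 289, also above every sex1-3 array (85.0 to 95.3). With all 12 arrays the sex1-3 minus wild type value of ETFQO was 0.10 ± 0.55.

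In ptpkis2 minus wild type 1 of the 12 fell, AKINBETA1 (-1.12 ± 0.14, limma adjusted p = 0.0064), and 0 rose, where 0.191% of all probe sets fell and 0.0733% rose. The median of the 12 was -0.10, against 0.05 for all probe sets. Without wild type replicate 2, 4 of 12 fell, namely AKINBETA1 (-1.17), MCCA (-1.01), ATG8E (-0.74) and AT3G15630, where 1.87% of all did. AKINBETA1 no longer passed when ptpkis2 replicate 1 or 2 was left out, and the count was then 0. AT3G15630 had -1.36 ± 0.36 on 12 arrays (limma adjusted p = 0.18) and -1.83 without wild type replicate 2 (adjusted p = 7e-04). IVD and MGL, which rose in sex1-3, had 0.67 ± 0.48 and 0.79 ± 0.51 in ptpkis2 minus wild type, and -0.04 and 0.13 without that array.

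In sex4-3 minus wild type 0 of the 12 passed by limma, where 0.00733% of all probe sets were called lower and 0% higher. At an unadjusted limma p under 0.05 were 0 of 12, where 5.23% of all were. Without wild type replicate 2 it was 1 of 12 at that level, where 4.68% of all were. In ptpkis2 minus sex1-3 5 of the 12 fell, where 4.18% of all probe sets did; this comparison shares the sex1-3 arrays with sex1-3 minus wild type. They were MCCA (-2.69 ± 0.21), AKINBETA1 (-2.55 ± 0.14), AT3G15630 (-3.15 ± 0.36), IVD (-2.41 ± 0.48) and MGL (-2.49 ± 0.51). The median of the 12 was -1.18, against 0.08 for all probe sets.

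**Figure D4:**
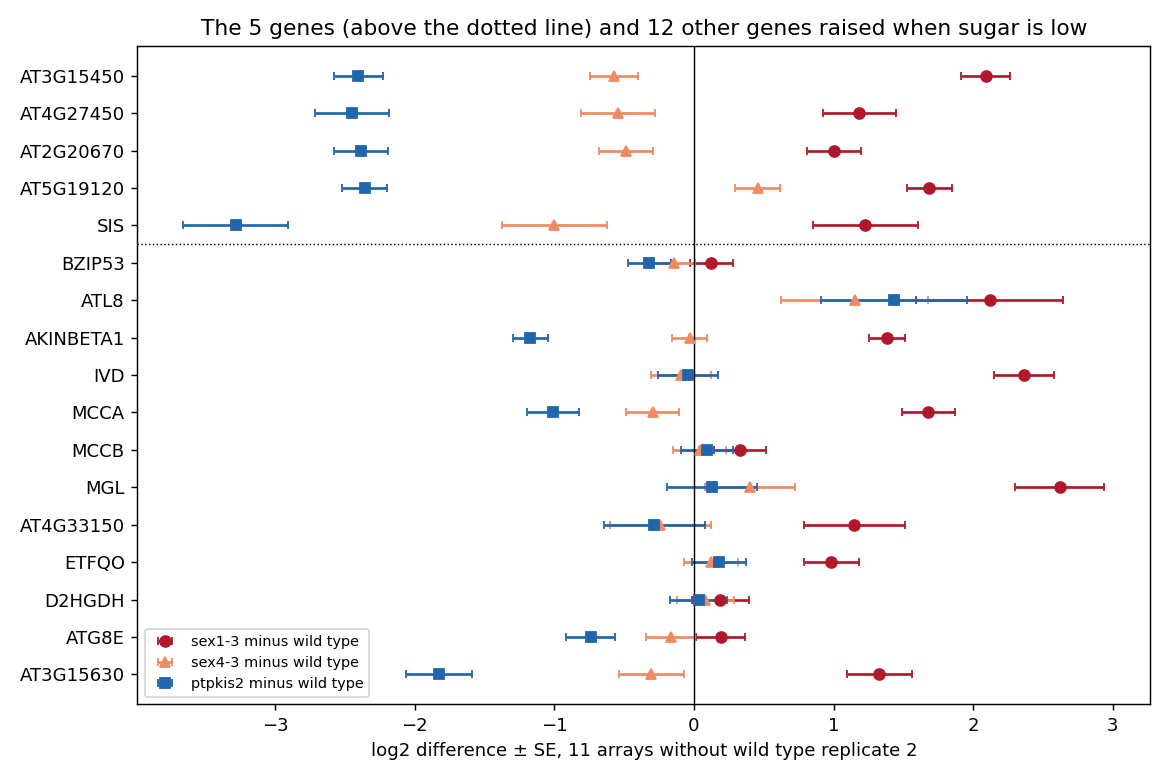
Log2 difference ± SE from wild type, over the 11 arrays without wild type replicate 2, of the 5 graded genes (above the dotted line) and the 12 measured genes of the sugar list, for sex1-3 (circles), sex4-3 (triangles) and ptpkis2 (squares). The 5 graded genes have ptpkis2 values of -3.28 to -2.36, and IVD and MGL have values near 0 in ptpkis2 beside 2.36 and 2.62 in sex1-3.

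Of 11 listed genes of the SnRK1 complex and its partners 5 had a named probe set. By limma on 12 arrays 1 of the 5, AKINBETA1, rose in sex1-3 minus wild type, where 1.08% of all probe sets did, and 1 of the 5, again AKINBETA1, fell in ptpkis2 minus wild type, where 0.191% did. Whether the other 4 differed from it was not tested. AT4G16360 and AT2G28060, which encode the other beta-type subunits, had 0.29 ± 0.30 and -0.06 ± 0.19 in sex1-3 minus wild type and 0.81 ± 0.30 and -0.30 ± 0.19 in ptpkis2 minus wild type, without passing. With replicate 2 left out AT4G16360 had -0.12 and 0.40 and AT2G28060 had 0.09 and -0.14, so both changed sign in sex1-3. The FCS-like zinc finger genes AT1G78020 and AT5G11460 had 0.06 ± 0.50 and 0.06 ± 0.38 in sex1-3, and 0.56 ± 0.50 and 0.39 ± 0.38 in ptpkis2, also without passing. Without wild type replicate 2, AT1G78020 was at -0.75 in sex1-3 and passed (limma adjusted p = 0.0018), where 5.64% of all probe sets fell. Its ptpkis2 value then turned to -0.25, while AT5G11460 had -0.07 and 0.26. Of 12 genes known to be raised by sugar only APL3, a subunit of the starch synthesis enzyme ADP-glucose pyrophosphorylase, and DFR, of anthocyanin synthesis, were measured. APL3 had -0.94 ± 0.40 and DFR -0.96 ± 0.97 in sex1-3 minus wild type (limma adjusted p = 0.22 and 0.55), neither passing. With replicate 2 left out APL3 had -0.63 and DFR turned to 0.46.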

How the data were processed

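Leaf RNA of 12 samples was hybridised to 1-colour Affymetrix ATH1 arrays. The deposited intensities are 1 signal per probe set and array, made by the authors with MAS5 and GCOS per the submitters' processing notes; no versions or detection calls were used. The number of arrays limits the precision. Here log2 was taken with no pseudocount. After 64 control probe sets, the 40% with the lowest mean were left out, leaving 13647. Limma 3.58.1 in R 4.3.3 (lmFit, eBayes with trend, two-sided, Benjamini-Hochberg, called below an adjusted p of 0.05) was fitted over all 12 arrays with 8 residual degrees of freedom, and tested on simulated data. Platform annotation updated through RefSeq (TAIR10.1, names only) paired 13513 probe sets with 1 gene and 503 with several; 8730 are unnamed here. No genome build is named for these files, so no coordinates are given.

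The 5 genes, the lists and the alternatives were chosen with earlier results of these data known; the lists hold genes whose values had been seen. Named were the 5 genes, called list genes (up to 6 per direction in sex1-3 minus wild type, 4 in ptpkis2 minus wild type and minus sex1-3), every measured relative, and the nearest genes by profile (3 per gene, 5 for the mean). Lists for flower and seed markers had no named probe set.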

Additional observations from a re-analysis of the deposited data

Results flagged for a closer look

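On wild type replicate 2 the 18 spike-in control probe sets, which no comparison uses, stood at 23.3 times their level elsewhere (median over the probe sets), while on the other 11 arrays this ratio was between 0.525 and 1.34. The same array had the lowest wild type signal of AT4G27450, AT2G20670, AT5G19120 and SIS, but not of AT3G15450. The part of the array's quality in those values was not tested.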

How the results depend on the processing

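Of 30 differences of the 5 genes (6 comparisons), 28 kept their sign under all 23 alternatives. The other 2, of AT4G27450 and AT2G20670, are sex4-3 minus wild type. Much of this was fixed in advance: changes of filter or eBayes setting, the replicate block and the 2 genotypes alone cannot move a difference. Nor can leaving out an array move a difference between 2 other genotypes. Median centring of arrays shifted the median of all probe sets in sex1-3, sex4-3 and ptpkis2 minus wild type to 0.52, 0.43 and 0.36, where it was -0.02, 0.02 and 0.05; with it the median of the 5 genes in sex1-3 was 2.19 and AT2G20670 turned to 0.12 in sex4-3. Leaving out 1 array gave medians of the 5 genes of 1.23 to 2.01 in sex1-3 minus wild type, where all arrays gave 1.65.

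Counts of calls depended on the arrays and the scaling. Leaving out 1 array gave 158 to 1211 calls in sex1-3 minus wild type (403 with all), 6 to 369 in ptpkis2 minus wild type (36), 679 to 3970 in ptpkis2 minus sex1-3 (1291), 113 to 1907 in sex4-3 minus sex1-3 (332) and 2 to 226 in ptpkis2 minus sex4-3 (9); each highest count is without wild type replicate 2. The sugar list then had 4 to 7 calls in sex1-3 and 0 to 4 in ptpkis2 minus wild type, and 4 to 9 in ptpkis2 minus sex1-3. In the order sex1-3, sex4-3 and ptpkis2 minus wild type, ptpkis2 and sex4-3 minus sex1-3, and ptpkis2 minus sex4-3, array weights gave 2015, 24, 799, 4627, 2819 and 993 calls, median centring 86, 0, 1, 470, 57 and 0, and the 2 genotypes alone 0, 0, 0, 4257, 1461 and 205 (at an unadjusted p under 0.05, limma gave 1257, 125 and 729 for the first 3, and median centring 476 and 340 where it gave 0). Quantile normalization gave 207 in sex1-3 and 0 in sex4-3 minus wild type (524 unadjusted) and 14 in ptpkis2 minus sex4-3. Ptpkis2 minus wild type had 18 without a filter, 59 with a stricter one and 14 without a trend; ptpkis2 minus sex4-3 had 17 with the stricter filter and 16 with a pseudocount. The sugar list had 8, 5 and 9 calls in sex1-3 minus wild type, ptpkis2 minus wild type and ptpkis2 minus sex1-3 with array weights, 0, 0 and 9 with the 2 genotypes alone (6 and 3 unadjusted for the first 2), 2 in sex1-3 minus wild type and 3 in ptpkis2 minus sex1-3 with quantile normalization, 0 and 3 in the last 2 with median centring (2 unadjusted) and 2 in ptpkis2 minus wild type with the stricter filter. With array weights the 5 sugar list calls in ptpkis2 minus wild type were 4 lower and 1 higher. The causes of the changes in counts were not tested.

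Replicate numbers are shared by the genotypes, and the labels do not say if they mark a batch. Same-numbered arrays had residual correlations of -0.07 to 0.11, with 2 of 18 over 0.1. Arrays of different number had -0.14 to 0.13, with 2 of 36 over 0.1. These values cannot tell if same-numbered arrays were handled together. The replicate block gave 12 calls in ptpkis2 minus wild type and moved no other count by over 1.5 times.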
